A study of Mus musculus with 20 samples.

Results

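Goblet cells are the secretory cells of the intestinal epithelium that make and release mucus. The gel-forming mucin Muc2 is folded and cross-linked in the endoplasmic reticulum, heavily glycosylated in the Golgi apparatus, stored in granules and released together with trefoil peptides, lectins and other granule proteins. In the small intestine this mucus is loosely attached and mixes with the antimicrobial products of Paneth cells, the neighbouring secretory cells of the crypt base. The genes described here are 10 of the best known goblet cell genes, chosen by symbol. They are the mucus components Muc2, Fcgbp, Tff3 and Zg16, the secreted proteins Spink4, Klk1 and Retnlb, the endoplasmic reticulum proteins Agr2 and Ern2, and the transcription factor Spdef. All 10 were found in both expression tables, among 17294 gene names in the acute table and 16195 in the prolonged table.

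Expression was measured by poly(A) RNA-seq of intestinal epithelial cells from the jejunum of female mice. Mice whose histone H3 demethylase genes Kdm6a and Kdm6b were both ablated (double knockout, DKO) were set against animals labelled control or wild type. At 7 days after ablation (acute) there were 7 DKO and 5 control libraries, and at 5 months (prolonged) 5 DKO and 3 control libraries. The Cre driver, the inducing agent, the alleles and the age of the animals were absent from the labels, and so was what the control animals carried or received.

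Values are CPM, read counts scaled to the same total in every library, and log2 fold changes give DKO minus control for log2(CPM + 1), with the standard error (SE) of limma-trend. A gene was called where its Benjamini-Hochberg adjusted p over all tested genes was under 0.05. Depth ranged over libraries between 9914738 and 26586045 reads assigned to genes. For Kdm6a and Kdm6b, no DKO value reached the lowest control value at either time (log2 fold changes by limma -0.62 ± 0.07 and -0.53 ± 0.08 at the acute time, -0.62 ± 0.07 and -0.42 ± 0.06 at the prolonged time). Acute DKO 3 and acute DKO 4 stood apart from the other 10 acute libraries on the first principal component, so acute counts and named calls that change without them are given both ways. The acute and prolonged tables were made separately, and levels are compared only within a time. These are bulk libraries, in which fewer goblet cells and less RNA per goblet cell cannot be told apart.

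Of the 10 goblet cell genes, 3 passed the test at the acute time. Zg16 rose and Spink4 and Klk1 fell, and the other 7 were not called. Across all 13601 genes tested at this time, 2.9% were called higher and 12.1% lower. Without acute DKO 3 and acute DKO 4, Retnlb was called lower too, so that 4 of the 10 passed. In that fit 394 of 13477 tested genes were called higher and 1311 lower. At the prolonged time 9 of the 10 passed the filter on low values. The calls were those of the full acute fit, with Zg16 higher and Spink4 and Klk1 lower. Over all 13316 genes tested, 5.74% were called higher and 8.94% lower. The median log2 fold change over the goblet cell genes tested was -0.15 at the acute time, where the median over all tested genes was -0.07, and -0.03 at the prolonged time, where it was 0.00 over all tested genes. The summed level of the 10 genes took 0.606% to 0.739% of the reads in acute DKO libraries and 0.576% to 0.678% in acute control libraries, and 0.906% to 1.02% in prolonged DKO libraries and 0.848% to 0.950% in prolonged control libraries. The summed levels overlapped between genotypes at both times.

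**Figure D1:**
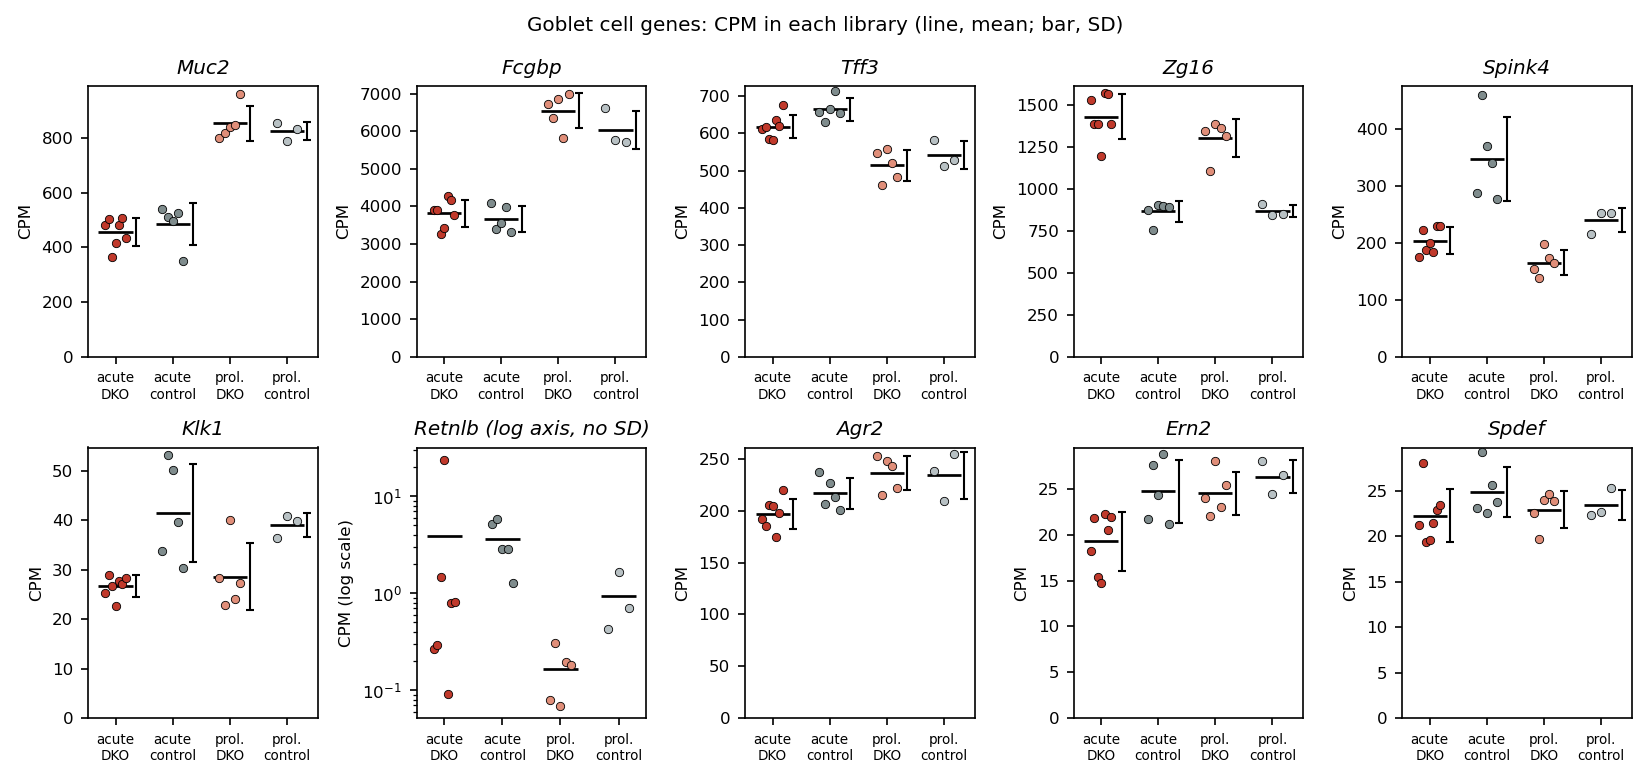
CPM of the 10 goblet cell genes in each library (points), with the group mean (line) and SD (bar), for acute DKO, acute control, prolonged DKO and prolonged control, with each gene on its own axis. Zg16 values of DKO libraries all lie above those of the controls of their time (lowest DKO libraries 1193 and 1106 CPM, highest controls 900.2 and 908 CPM), Spink4 is lower in every DKO library, and Muc2 overlaps between genotypes.

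Among the structural components of mucus, Muc2 itself, the mucin that forms the gel, was not called at either time. It had 366 CPM in the lowest, 480.1 CPM in the median and 507 CPM in the highest acute DKO library, against 541, 511, 495, 525.99 and 352 CPM in the acute controls. In prolonged DKO libraries it had 798, 818, 840.3, 848 and 959 CPM, against 855, 789.6 and 834 CPM in prolonged controls. The groups overlapped at both times. The log2 fold change of Muc2 was -0.08 (95% interval -0.32 to 0.16) at 7 days and 0.04 (-0.10 to 0.19) at 5 months, with limma adjusted p of 0.676 and 0.719.

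Fcgbp encodes a large secreted protein of the mucus gel that binds covalently to Muc2. It averaged 3818 ± 365 CPM in acute DKO libraries (SD, n = 7) and 3669 ± 355 CPM in acute controls (SD, n = 5), and 6552 ± 467 CPM in prolonged DKO libraries (SD, n = 5) and 6039.98 ± 499 CPM in prolonged controls (SD, n = 3). Its values overlapped between genotypes at both times. The log2 fold changes by limma were 0.06 (95% interval -0.16 to 0.27; adjusted p = 0.761) and 0.12 (-0.10 to 0.34; adjusted p = 0.495).

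Tff3 encodes a trefoil peptide released with the mucin. Its lowest, median and highest values were 581, 617 and 676 CPM in acute DKO libraries, against 656, 631, 665, 714 and 655 CPM in acute controls. It had 547, 460.2, 558, 521 and 483 CPM in prolonged DKO libraries, against 583, 513 and 528 CPM in prolonged controls. Most acute DKO values lay below the acute controls but the groups overlapped at both times. The log2 fold changes by limma were -0.10 (95% interval -0.22 to 0.01; adjusted p = 0.216) and -0.08 (-0.23 to 0.08; adjusted p = 0.543).

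Zg16 encodes a small lectin of the mucus layer that binds the cell wall of Gram-positive bacteria, and it was the only one of the 10 genes that rose. It had 1193 CPM in the lowest, 1383 CPM in the median and 1569.8 CPM in the highest acute DKO library, against 876, 757, 900.2, 898 and 893 CPM in the acute controls. Prolonged DKO libraries had 1344, 1106, 1384, 1363 and 1315 CPM, against 908, 846 and 849.9 CPM in prolonged controls. All DKO values lay above all control values at both times, which was the case for 1.24% of all genes tested at 7 days and 8.82% at 5 months. Zg16 rose by 0.72 ± 0.08 on the log2 scale at 7 days and by 0.58 ± 0.08 at 5 months (SE; limma adjusted p = 0.000119 and 0.000497). The acute rise was 0.78 without acute DKO 3 and acute DKO 4 (limma adjusted p = 5.59e-05) and 0.81 on CPM scaled for composition by TMM factors.

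Zg16 and Muc2 thus differed in their calls. The ratio of Zg16 to Muc2 in one library does not depend on how libraries are scaled, apart from the added pseudocount of 1. It lay between 2.75 and 3.77 in acute DKO libraries and between 1.48 and 2.53 in acute controls. In prolonged DKO libraries it lay between 1.35 and 1.68, and in prolonged controls between 1.02 and 1.07. The ratios did not overlap between genotypes at either time. On the log2 scale the ratio was 1.65 ± 0.15 in acute DKO libraries (SD, n = 7) and 0.85 ± 0.30 in acute controls (SD, n = 5), a difference of 0.80 (exact permutation p = 0.00126, two-sided, the smallest that 792 splits allow). At the prolonged time it was 0.61 ± 0.15 in DKO libraries (SD, n = 5) and 0.07 ± 0.04 in controls (SD, n = 3), a difference of 0.54 (exact permutation p = 0.0179, two-sided, the smallest that 56 splits allow). Adjusted over both times by Benjamini-Hochberg, these were 0.00253 and 0.0179. The pair was chosen with earlier results on Zg16 known. Zg16 alone already separated the genotypes, so these p-values are not evidence beyond its rise, and the adjustment does not cover the choice of the pair.

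**Figure D2:**
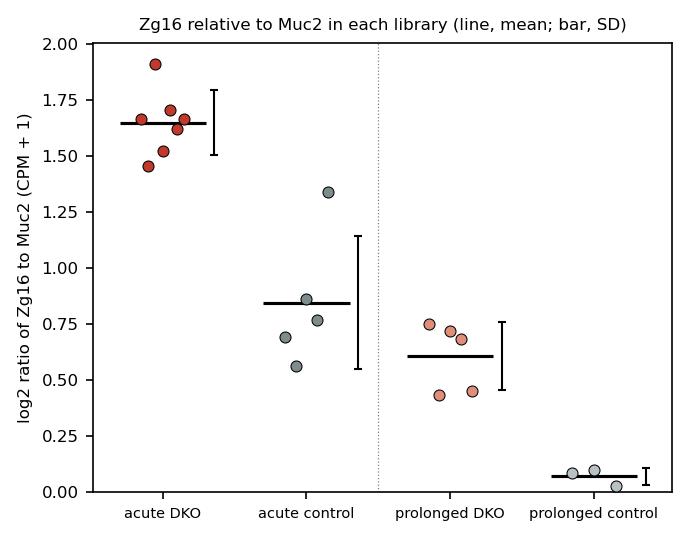
Log2 ratio of Zg16 to Muc2 (each CPM + 1) in each library (points), with the group mean (line) and SD (bar); the dotted line separates the acute from the prolonged table. The DKO libraries lie above all controls of their time, with means of 1.65 against 0.85 at 7 days and 0.61 against 0.07 at 5 months.

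Zg16 is set here beside markers of absorptive enterocytes, the most numerous epithelial cells of the jejunum. Of 15 such markers, 6 rose and 1 fell at the acute time, where 2.9% of all genes were called higher and 12.1% lower. Without acute DKO 3 and acute DKO 4, 4 rose and 1 fell, the calls of Anpep and Slc5a1 being lost (limma adjusted p = 0.0801 and 0.101). After 5 months 1 rose and 1 fell, near the shares over all genes of 5.74% and 8.94%. The median log2 fold changes were 0.35 and 0.19. Their summed level was 41871 to 55309 CPM in acute DKO libraries and 32421 to 47492 CPM in acute controls, and 50976 to 55120 CPM in prolonged DKO libraries and 38958 to 51967 CPM in prolonged controls, and these sums overlapped at both times. Mgam, a brush-border glucosidase, rose at both times (0.68 ± 0.15 and 0.53 ± 0.09; limma adjusted p = 0.00916 and 0.00346) and kept its calls whenever a single library was left out. The acute rises of Anpep, Slc5a1, Slc2a2 and Vil1 each lost the call in at least 1 such fit. The part of these differences in the rise of Zg16 was not tested.

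Among the secreted proteins with other roles, Spink4, of the Kazal family of serine protease inhibitors, fell at both times. It had 175 CPM in the lowest, 200.4 CPM in the median and 230.1 CPM in the highest acute DKO library, against 288, 459.7, 370.3, 340.1 and 277 CPM in the acute controls. Prolonged DKO libraries had 154, 138, 198, 173 and 165 CPM, against 215, 252 and 253 CPM in prolonged controls. All DKO values lay below all control values at both times, which was so for 6.55% of all genes tested at 7 days and 11.7% at 5 months. Spink4 fell by 0.75 ± 0.12 on the log2 scale at 7 days and by 0.54 ± 0.10 at 5 months (SE; limma adjusted p = 0.00119 and 0.00390).

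Klk1, the tissue kallikrein, a secreted serine protease, fell at the acute time. It had 22.7 CPM in the lowest, 27.2 CPM in the median and 29.0 CPM in the highest acute DKO library, against 33.8, 53.2, 50.3, 39.8 and 30.5 CPM in the acute controls, and these groups did not overlap. Its log2 fold change was -0.59 ± 0.13 (SE; limma adjusted p = 0.00720). At the prolonged time the values were 28.4, 23.0, 40.0, 24.2 and 27.4 CPM in DKO libraries, against 36.5, 41.0 and 39.9 CPM in controls, and prolonged DKO 3 lay within the control range. The prolonged log2 fold change was -0.46 ± 0.14 (SE; limma adjusted p = 0.0490), a call that was lost on TMM-scaled CPM (0.0518), with edgeR (0.0677) and with no filter on low values (0.0529). Leaving out prolonged DKO 1, DKO 2, DKO 4, DKO 5, control 1, control 2 or control 3 also ended it (limma adjusted p = 0.0760, 0.0862, 0.101, 0.0943, 0.0712, 0.128 and 0.1496), while without prolonged DKO 3 the fall was 0.59 (adjusted p = 0.00157). Klk1 belongs to a family of similar kallikrein genes, and how reads shared among them were counted is not given. Klk1b5, Klk1b27 and Klk1b4, the members of that family found in the tables, reached at most 0.763 CPM in an acute and 0.756 CPM in a prolonged library.

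Promoter sequences are shown for Klk1, which fell, beside those of Muc2 and Fcgbp, which did not pass the test. They are from RefSeq (GRCm38.p6, matched by symbol for 5 of the 10 genes), each 250 bases before the annotated start, 5′ to 3′ on the + strand. Capitals mark the exact letters that were found, CAGCTG (an E-box) and TATAAA (the TATA box letters).
Klk1, chr7:44225110-44225359: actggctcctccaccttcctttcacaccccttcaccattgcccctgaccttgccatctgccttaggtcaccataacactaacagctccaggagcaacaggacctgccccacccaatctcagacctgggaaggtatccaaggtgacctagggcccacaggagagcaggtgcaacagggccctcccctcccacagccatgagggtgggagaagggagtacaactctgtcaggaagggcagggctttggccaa
Muc2, chr7:141690090-141690339: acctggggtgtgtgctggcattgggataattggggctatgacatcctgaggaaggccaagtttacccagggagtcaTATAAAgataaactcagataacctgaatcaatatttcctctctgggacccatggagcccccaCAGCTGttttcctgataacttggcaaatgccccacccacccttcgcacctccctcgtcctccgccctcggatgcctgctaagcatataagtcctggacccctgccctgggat
Fcgbp, chr7:28070986-28071235: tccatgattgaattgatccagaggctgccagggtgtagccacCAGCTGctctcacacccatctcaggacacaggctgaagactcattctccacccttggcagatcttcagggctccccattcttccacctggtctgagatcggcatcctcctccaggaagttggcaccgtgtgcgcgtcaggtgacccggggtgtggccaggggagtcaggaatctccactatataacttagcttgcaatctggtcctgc

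The motifs were searched on both strands in the window that also holds the first 50 bases after the start, namely CAGCTG, an E-box bound by basic helix-loop-helix factors, TGTTTAC, a forkhead motif, CCGGAT, an ETS-type motif, and TATAAA. They were found in 16.3%, 3.65%, 6.04% and 13.6% of all 32851 promoters. The Muc2 window held CAGCTG at position -112 and the letters TATAAA at position -174, counted from the annotated start. The Fcgbp window held CAGCTG at position -208. Only exact letters were searched. TATA-like letters nearer the start, tataag in Muc2 and tataac in Fcgbp, were therefore not marked, and the match at -174 need not be a working TATA box. The Klk1, Agr2 and Spdef windows held none of the searched letters. These matches are a description of the windows, and no binding was measured.

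Retnlb encodes a resistin-like molecule secreted by goblet cells that acts on bacteria and is induced by type 2 cytokines. It was low and variable. Acute DKO 4 had 23.7 CPM (508 reads), while the other 6 acute DKO libraries lay between 0.0914 and 1.46 CPM. The acute controls had 5.16, 5.88, 2.85, 2.88 and 1.27 CPM. All acute DKO libraries other than DKO 3 and DKO 4 thus lay below every control, and the groups overlapped through those 2 libraries. The acute log2 fold change was -0.89 ± 0.64 (SE; limma adjusted p = 0.398), and it was -1.46 (adjusted p = 0.00397) without acute DKO 4 and -1.59 (adjusted p = 0.00241) without acute DKO 3 and acute DKO 4. The authors' deposited table gives -2.11 with an adjusted p of 0.00185, whereas edgeR on the recovered reads gave 0.29 (adjusted p = 0.892), so neither the direction nor the call of Retnlb at the acute time was stable across these methods. At the prolonged time it did not reach the minimum for the test. It had 0.0796, 0.309, 0.0688, 0.194 and 0.180 CPM in DKO libraries, which is 1, 5, 1, 4 and 3 reads, against 0.431, 1.66 and 0.706 CPM in controls, which is 10, 29 and 7 reads. The prolonged groups did not overlap at these read numbers, and the authors' deposited table gives a log2 fold change of -2.46 with an adjusted p of 0.00658.

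Acute DKO 4 also differed from the other acute libraries in other measures. Its summed level of Paneth cell markers was 1468 CPM, the lowest of the 12 acute libraries. Its immune cell markers summed to 412 CPM, a little below the 438 to 813 CPM of acute controls. Over all acute DKO libraries the immune sums ran from 412 to 1214 CPM, so they also reached far above the controls. The part of these sums in the Retnlb value of acute DKO 4 was not tested.

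Agr2, a protein disulfide isomerase of the endoplasmic reticulum that is needed to make Muc2 in mice, averaged 197 ± 14.7 CPM in acute DKO libraries (SD, n = 7) and 217 ± 15.02 CPM in acute controls (SD, n = 5). It averaged 236 ± 16.3 CPM in prolonged DKO libraries (SD, n = 5) and 234 ± 22.7 CPM in prolonged controls (SD, n = 3). The groups overlapped at both times, and limma gave log2 fold changes of -0.14 (95% interval -0.27 to 0.00; adjusted p = 0.164) and 0.01 (-0.15 to 0.17; adjusted p = 0.929).

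Ern2, the epithelial isoform of the IRE1 sensor of unfolded proteins, had 14.8 CPM in the lowest, 20.5 CPM in the median and 22.3 CPM in the highest acute DKO library. The acute controls had 21.7, 27.6, 24.3, 28.8 and 21.1 CPM. Acute DKO 3 and acute DKO 4 were the lowest of the DKO libraries, and the groups overlapped. The acute log2 fold change was -0.35 ± 0.12 (SE; limma adjusted p = 0.0713), which missed the threshold. In the prolonged table Ern2 averaged 24.5 ± 2.34 CPM in DKO libraries (SD, n = 5) and 26.3 ± 1.77 CPM in controls (SD, n = 3), with a log2 fold change of -0.10 ± 0.09 (SE; limma adjusted p = 0.492).

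Spdef, the ETS-family transcription factor that promotes terminal maturation of goblet and Paneth cells, averaged 22.3 ± 2.96 CPM in acute DKO libraries (SD, n = 7) and 24.9 ± 2.72 CPM in acute controls (SD, n = 5). It averaged 22.9 ± 1.99 CPM in prolonged DKO libraries (SD, n = 5) and 23.4 ± 1.64 CPM in prolonged controls (SD, n = 3). The log2 fold changes were -0.16 (95% interval -0.36 to 0.05) and -0.03 (-0.22 to 0.16), and limma called neither (adjusted p = 0.315 and 0.856).

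**Figure D3:**
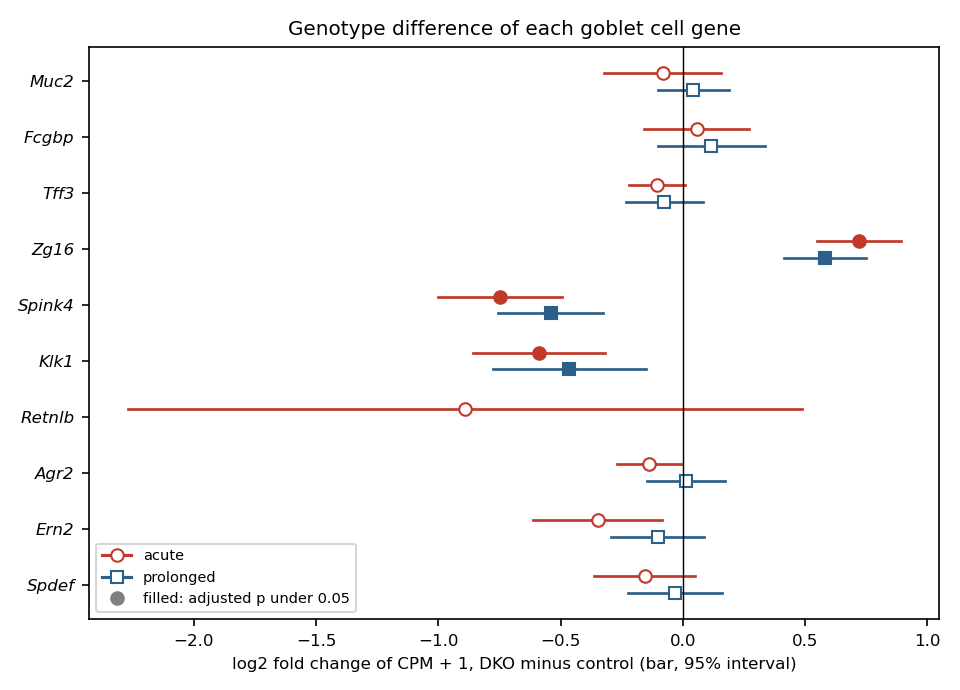
Log2 fold change of CPM + 1 (DKO minus control) of each goblet cell gene with its 95% interval, acute (circles) and prolonged (squares), filled where the limma adjusted p was under 0.05; Retnlb was not tested at the prolonged time. Zg16 lies to the right of 0 and Spink4 and Klk1 to the left at both times, while the intervals of Muc2, Fcgbp, Tff3 and Spdef cross 0.

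Whether the genotype difference itself changed between 7 days and 5 months was tested with an interaction term in 1 limma model of all 20 libraries. Of 13088 genes tested at both times, 0% were called, and edgeR called 0 as well. An unadjusted limma p under 0.05 was seen for 608 of them, fewer than the share of 0.05 that falls there on average where no gene differs. None of the 9 goblet cell genes tested was called (adjusted p 0.859 to 0.954). The difference, prolonged minus acute, was -0.14 (95% interval -0.38 to 0.11) for Zg16, 0.21 (-0.17 to 0.58) for Spink4 and 0.12 (-0.31 to 0.56) for Klk1.

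Other products and markers of goblet cells, a list of 26 measured genes, were called in 1 direction only. At the acute time 13 fell, 0 rose and 13 were not called, with a median log2 fold change of -0.35. After 5 months 15 fell, 0 rose and 11 were not called, with a median of -0.40, and 12 genes fell at both times. The background is as above, 12.1% and 8.94% of all genes called lower. Their summed level was 1620.3 to 2024 CPM in acute DKO libraries and 2039.7 to 3198 CPM in acute controls, and 1796 to 2029.7 CPM in prolonged DKO libraries and 2309 to 2820 CPM in prolonged controls, without overlap at either time. The number that fell at the prolonged time was 8 without prolonged control 3, and 10 fell at the acute time without acute DKO 3 and acute DKO 4.

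The largest falls of this list were in Reg4, Capn8, Ang and Scin. Reg4, a secreted C-type lectin that also marks deep crypt secretory cells in the mouse colon, averaged 60.9 ± 28.6 CPM in acute DKO libraries (SD, n = 7) and 185 ± 81.7 CPM in acute controls (SD, n = 5), and 75.3 ± 18.7 CPM in prolonged DKO libraries (SD, n = 5) and 169 ± 12.5 CPM in prolonged controls (SD, n = 3). Its log2 fold changes were -1.68 ± 0.41 and -1.20 ± 0.19 (SE; limma adjusted p = 0.0146 and 0.00161). Capn8, a calpain protease of the gastrointestinal tract, fell at both times, with log2 fold changes of -1.10 ± 0.13 and -1.21 ± 0.13 (limma adjusted p = 0.000229 and 0.000140). Scin, the actin-severing protein scinderin, fell too, with -0.84 ± 0.18 and -1.19 ± 0.13 (limma adjusted p = 0.00845 and 0.000118). Ang, a secreted ribonuclease, had log2 fold changes of -0.98 ± 0.12 and -0.92 ± 0.10 (limma adjusted p = 0.000238 and 0.000120), but has close relatives whose reads may be shared with it. Ang4, a relative listed among the Paneth cell markers below, fell at both times too. When single libraries were left out, its log2 fold changes ranged from -2.24 to -1.79 and from -2.48 to -1.93. The part of Ang4 reads in the fall of Ang was not tested. The calls of Reg4, Capn8, Scin and Ang held when any single library was left out.

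Clca1, an abundant secreted metalloprotease of the mucus, was looked up after its values were seen. It averaged 647 ± 114 CPM in acute DKO libraries (SD, n = 7) and 852 ± 266 CPM in acute controls (SD, n = 5), and 650.2 ± 48.3 CPM in prolonged DKO libraries (SD, n = 5) and 898 ± 244 CPM in prolonged controls (SD, n = 3). Its log2 fold changes were -0.36 ± 0.17 and -0.43 ± 0.13 (SE; limma adjusted p = 0.183 and 0.0491). The prolonged call held in 1 of 8 fits that left out a single library, and the highest adjusted p was 0.153, without prolonged control 2.

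**Figure D4:**
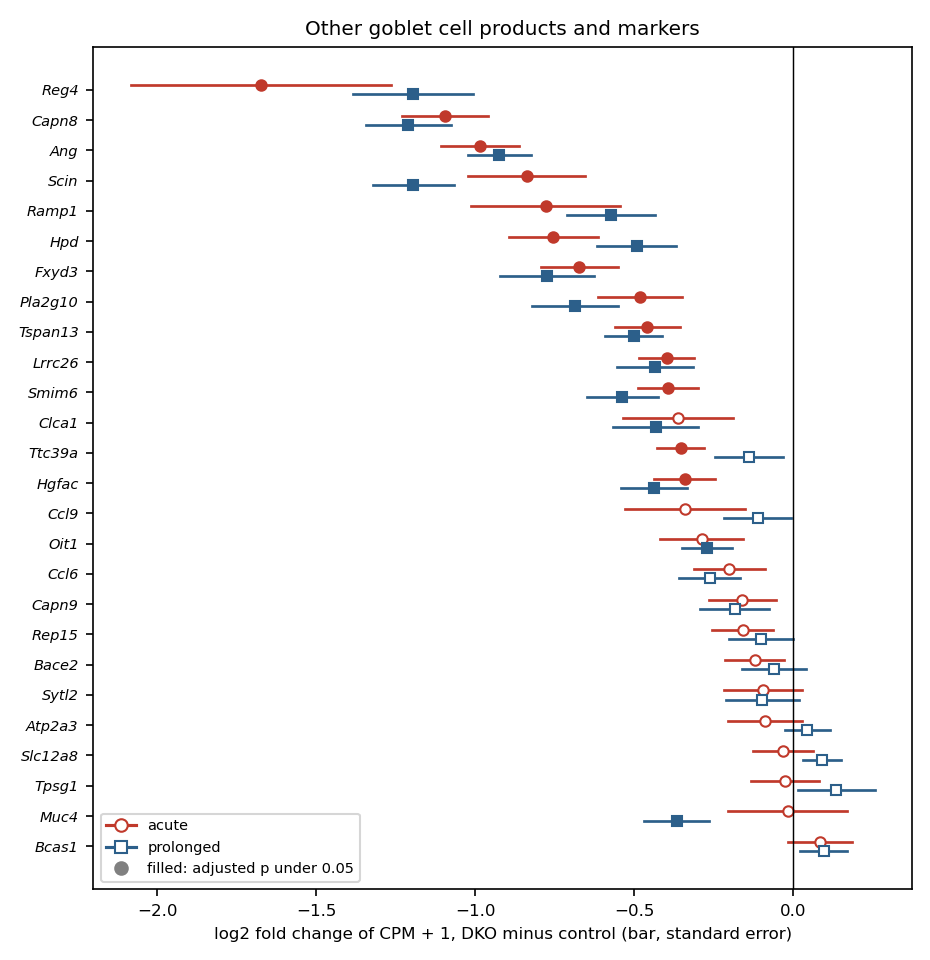
Log2 fold change of CPM + 1 (DKO minus control) with its standard error for 26 other goblet cell products and markers, acute (circles) and prolonged (squares), filled where the limma adjusted p was under 0.05, ordered by the acute value. Of these genes, 13 at 7 days and 15 at 5 months were called lower and 0 higher, with Reg4, Capn8, Ang and Scin at the top.

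Paneth cell markers, which share regulators with goblet cells, were called lower in most cases. Of 16 markers, 10 fell and 0 rose at the acute time, against 12.1% of all genes called lower, with a median log2 fold change of -1.34. Without acute DKO 3 and acute DKO 4, which had the lowest sums of these markers, 11 fell and 1 rose, with a median of -0.97. Among prolonged libraries, 9 fell and 1 rose, against 8.94% of all genes called lower, with a median of -1.03. Their summed level was 1468 to 5140 CPM in acute DKO libraries and 5440.2 to 10519 CPM in acute controls, and 2844 to 8407 CPM in prolonged DKO libraries and 8432 to 9442 CPM in prolonged controls, without overlap at either time. Of 12 stem cell markers, 6 fell at 7 days (5 without acute DKO 3 and acute DKO 4) and 3 at 5 months. Of 14 tested enteroendocrine cell markers, 2 fell and 0 rose at 7 days, near the 12.1% of all genes called lower and 2.9% called higher. Without acute DKO 3 and acute DKO 4, 2 fell and 1 rose, where 394 of 13477 genes were called higher and 1311 lower. At 5 months 4 of the 14 markers fell and 1 rose, where 5.74% of all genes were called higher and 8.94% lower. The part of these differences in the falls of Spink4, Klk1 and the 26 other goblet cell genes was not tested.

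Of 15 transcription factors of the goblet lineage, 1 fell and 0 rose at the acute time, where 12.1% of all genes were called lower, and 0 were called at the prolonged time (limma). The gene that fell was Foxa3, a forkhead factor of the intestinal secretory lineages. It averaged 15.5 ± 3.23 CPM in acute DKO libraries (SD, n = 7) and 22.4 ± 1.27 CPM in acute controls (SD, n = 5), a log2 fold change of -0.53 ± 0.13 (SE; limma adjusted p = 0.0160), and was not called in the fit with animal-number blocks (adjusted p = 0.0563). Its prolonged log2 fold change was -0.30 ± 0.10 (SE; limma adjusted p = 0.0655), which was called on TMM-scaled CPM (0.0423) and with edgeR (0.0342). The medians of this list were -0.28 and -0.03.

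Enzymes that build the sugar chains of mucins showed calls in both directions. Of 35 measured genes, 2 rose and 3 fell at the acute time, where 2.9% of all genes were called higher and 12.1% lower. Without acute DKO 3 and acute DKO 4, 2 rose and 5 fell, where 394 of 13477 genes were called higher and 1311 lower. In prolonged libraries 4 rose and 6 fell, against 5.74% and 8.94% of all genes. The median log2 fold changes were -0.07 and -0.11. B3gnt6, the core 3 synthase of mucin-type O-glycans, had the largest fall. It averaged 0.599 ± 0.357 CPM in acute DKO libraries (SD, n = 7) and 2.61 ± 1.20 CPM in acute controls (SD, n = 5), with log2 fold changes of -1.15 ± 0.19 and -1.21 ± 0.16 (SE; limma adjusted p = 0.00168 and 0.000419). Galnt12 and Galnt4, which start O-glycan chains, had log2 fold changes of -0.38 and -0.32 at the acute time and -0.39 and -0.23 at the prolonged time, all called, though the prolonged call of Galnt12 was lost without prolonged control 3 (adjusted p = 0.0836) and that of Galnt4 without any of 5 single libraries (highest adjusted p = 0.0991, without prolonged control 1). St6galnac6 and Fut2 were called at the prolonged time too and fell further than Galnt12 and Galnt4. When single libraries were left out, their log2 fold changes ranged from -1.02 to -0.57 and from -0.91 to -0.59. Both calls were lost without prolonged control 2 (limma adjusted p = 0.0576 and 0.0675), and that of Fut2 also without prolonged control 3 (0.0562).

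Among the glycosylation genes that rose was Gcnt3, the core 2 and core 4 branching enzyme. It averaged 102 ± 3.82 CPM in prolonged DKO libraries (SD, n = 5) and 64.7 ± 8.95 CPM in prolonged controls (SD, n = 3), a rise of 0.65 ± 0.08 (SE; limma adjusted p = 0.000187). Gal3st2, a galactose sulfotransferase, rose at both times by 0.33 ± 0.07 and 0.36 ± 0.08 (limma adjusted p = 0.00963 and 0.00923). B4galnt2, which adds N-acetylgalactosamine to make the Cad or Sda antigen, rose by 0.27 ± 0.06 at the acute time (limma adjusted p = 0.0109, and 0.0570 with animal-number blocks), and Galnt6 by 0.25 ± 0.05 at the prolonged time (limma adjusted p = 0.00499).

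Of 37 genes of protein folding and transport in the endoplasmic reticulum, 1 rose and 2 fell at the acute time, fewer falls than the 12.1% over all genes. Without acute DKO 3 and acute DKO 4, 1 rose and 5 fell, where 1311 of 13477 genes were called lower. The share of falls was thus not below that of all genes in that fit. By 5 months 1 rose and 4 fell, near the 5.74% and 8.94% of all genes called higher and lower. The median log2 fold changes were -0.03 and -0.07. The gene that rose was Kdelr3, a receptor that returns proteins to the endoplasmic reticulum, at 25.1 ± 5.45 CPM in acute DKO libraries (SD, n = 7) and 8.11 ± 1.99 CPM in acute controls (SD, n = 5). It rose by 1.52 ± 0.16 and 1.29 ± 0.13 (SE; limma adjusted p = 9.57e-05 and 6.12e-05). The falls were in Ern1 and Krtcap2 at the acute time, and neither was called on TMM-scaled CPM (adjusted p = 0.0526 and 0.0855), nor was Ern1 without acute DKO 3 and acute DKO 4 (0.0870). At the prolonged time they were in Agr3, Pdia5, Tmed3 and Pdia6, of which none kept its call whenever a single library was left out.

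Of 10 genes that process or release mucus, 2 fell at 7 days, 3 fell at 5 months and 0 rose, beside 12.1% and 8.94% of all genes called lower. On TMM-scaled CPM 1 rose and 1 fell at 7 days, and 2 fell at 5 months. Of the 3 prolonged falls, 1 kept its call whenever a single library was left out. Without acute DKO 3 and acute DKO 4, 1 fell at 7 days, the call of the inflammasome sensor Nlrp6 being lost (limma adjusted p = 0.117). Mep1a, the alpha subunit of meprin, had the largest fall. Its partner, the beta subunit encoded by Mep1b, is known in mice to cleave Muc2 and so to detach small-intestinal mucus from the epithelium. Mep1a averaged 11.9 ± 5.32 CPM in acute DKO libraries (SD, n = 7) and 85.5 ± 12.8 CPM in acute controls (SD, n = 5), with log2 fold changes of -2.84 ± 0.24 and -2.51 ± 0.15 (SE; limma adjusted p = 1.61e-05 and 2.26e-06). Mep1b was not called, with log2 fold changes of 0.26 and 0.06.

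Muc4 was the only one of 3 tested transmembrane mucins that was called, at the prolonged time, where 8.94% of all genes were called lower. It also belongs to the list of other goblet cell products and markers above, so this is the same call. It averaged 104 ± 37.6 CPM in acute DKO libraries (SD, n = 7) and 101 ± 16.5 CPM in acute controls (SD, n = 5), which was not called, and 179.5 ± 20.7 CPM in prolonged DKO libraries (SD, n = 5) and 232 ± 35.6 CPM in prolonged controls (SD, n = 3). Its prolonged log2 fold change was -0.37 ± 0.10 (SE; limma adjusted p = 0.0320), a call kept in 2 of 8 fits that left out a single library, with the highest adjusted p of 0.118 without prolonged control 1.

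Of 7 tested genes of the type 2 cytokine response, which drives goblet cell expansion, 3 fell at 7 days, 2 fell at 5 months and 0 rose, beside 12.1% and 8.94% of all genes called lower. On TMM-scaled CPM 2 and 1 fell. They were gasdermin C genes, which are near-identical copies whose reads cannot be told apart with certainty. Gsdmc3 had log2 fold changes of -1.71 ± 0.35 and -0.91 ± 0.21 (SE; limma adjusted p = 0.00619 and 0.0143), and its calls held when any single library was left out. The acute call of Gsdmc4 (-1.28 ± 0.39; limma adjusted p = 0.0412) was kept in 2 of 12 fits that left out a single library and lost with TMM (0.0630), edgeR (0.0920) and DESeq2 (0.0909). The prolonged call of Gsdmc2 (-0.81 ± 0.25; limma adjusted p = 0.0495) was kept in 1 of 8 such fits, with the highest adjusted p of 0.172 without prolonged control 2.

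How the goblet cell genes varied among themselves within groups differed from pair to pair. Over the 12 acute libraries, with group means removed, the Pearson correlation of log2(CPM + 1) between Muc2 and Fcgbp was 0.79, between Muc2 and Ern2 0.62, and between Muc2 and Agr2 0.01. Without acute DKO 3 and acute DKO 4 these were 0.66, 0.41 and 0.23. Over the 8 prolonged libraries they were 0.41, 0.43 and -0.08. Of 10373 genes ranked, the 5 most like Muc2 at the acute time were Arhgap21, Naip6, Tatdn3, Sort1 and 1700094D03Rik (0.89 to 0.94), and over the prolonged libraries their correlations with Muc2 were 0.44, 0.01, -0.70, 0.25 and 0.19. The points share their library, depth and composition.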

How the data were processed

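RNA-seq of 20 libraries was analysed from 2 deposited tables, one per time. The authors deposited CPM per gene and library, and log2 fold changes with standard errors and adjusted p-values from DESeq2, per the file headers. The mouse build was mm9 and the tools included featureCounts 1.6.2, STAR and SAMtools 1.9, per the submitters' processing notes. No label says whether counting used strand, so reads of overlapping or antisense genes may be mixed. Whole reads could be recovered from the CPM steps for 100% of values (tolerance 0.01 reads), with weaker evidence for prolonged control 3, whose step is close to a power of 10. DESeq2 1.42.0 on these reads gave the authors' 2344 and 2091 calls.

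Because the deposited values are CPM, differences were tested at each time by limma-trend on log2(CPM + 1) with limma 3.58.1 in R 4.3.3, for genes with at least 0.5 CPM in at least 5 acute or 3 prolonged libraries. limma called 2035 of 13601 acute genes (15%; 394 higher, 1641 lower, against 701 and 1120 on TMM-scaled CPM) and 1955 of 13316 prolonged genes (14.7%). The interaction used 1 model of 4 groups, which treats the 2 tables as comparable in scale. Recovered reads were tested with edgeR 4.0.16 as an alternative. The tests were tested on simulated data. Exact permutation tests were two-sided on the absolute difference of means.

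The labels number the libraries as biological replicates, and no 2 libraries of a group agreed within sampling noise (44 pairs, 6.49 to 148 times the sampling variance). Acute labels give an animal number, used for blocks in an alternative. The acute DKO libraries that stood apart on the first principal component carry the highest animal numbers, above those of all acute controls. The part of the animal group in their deviation was not tested. How far the animal-number blocks repeat the fit without these libraries was not tested either. Same-numbered replicates did not deviate together (correlations -0.24 to 0.20), so numbers were not taken as pairs. The members and the lists were chosen with earlier results of these data known. Named genes were the 10 members, the targeted genes, up to 3 called rises and 3 called falls per list and time, and the 5 genes most like Muc2 and Zg16; those for Zg16 are not reported here.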

Additional observations from a re-analysis of the deposited data

Results flagged for a closer look

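In 4 of 33 groups of 4 to 10 libraries, 1 library lay farther from the others than Dixon's 95% critical value allows; chance flags about 1 group in 20. Acute DKO 4 was the highest acute DKO library for Retnlb, at 23.7 CPM. Acute control 5 was the lowest acute control for Muc2, at 352 CPM, and acute control 2 the lowest for Zg16, at 757 CPM. Prolonged DKO 2 was the lowest prolonged DKO library for Zg16, at 1106 CPM. The Zg16 call held without each of these libraries, and Muc2 was not called without acute control 5.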

How the results depend on the processing

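The calls of Zg16 and Spink4 at both times and of Klk1 at the acute time held under every alternative run: a pseudocount of 0.1, no filter on low values, TMM-scaled CPM, edgeR, DESeq2, the replicate block, animal-number blocks (acute), and leaving out any single library or acute DKO 3 and 4. Leaving out single libraries gave 1222 (without acute control 3) to 2186 called genes at the acute time, with 1344 without acute control 4, 1028 (without prolonged control 3) to 1705 at the prolonged time, and 0 to 1 for the interaction, which had 5 with no filter on low values. Replicate numbers did not pair the libraries; with the replicate block 947 acute and 528 prolonged genes were called, and 8 and 5 of the 26 other goblet genes were lower, against 8 to 13 at the prolonged time when single libraries were left out. Under that block Klk1 was not called at the prolonged time (-0.38, adjusted p = 0.233). Retnlb at the acute time (-0.89, called only under some alternatives) was 0.29 with edgeR. Values near 0 that were not called changed sign: Muc2 at the acute time with TMM (0.0088), DESeq2 (0.0099) and without acute DKO 3 and 4 (0.0033), and at the prolonged time with the replicate block (-0.012); Agr2 (-0.064 to 0.075) and Spdef (-0.063 to 0.023) at the prolonged time when single libraries were left out. In the interaction, the sign changed for Fcgbp (-0.024 with TMM, -0.021 with edgeR, -0.013 without acute DKO 3 and 4), Tff3 (-0.056, -0.052 and -0.0041; -0.0096 to 0.084 when single libraries were left out) and Klk1 (-0.00074 to 0.22). The cause was not tested. With 3 prolonged controls, and 1 to 29 reads of Retnlb per prolonged library, small differences could not be detected at this depth.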
